A study of Paramacrobiotus metropolitanus with 7 samples.

Results

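Sex-lethal (sxl) and transformer-2 (tra2) are RNA-binding splicing regulators known from the sex cascade of Drosophila, and 4 of the 26306 transcripts of the deposited expression matrix of the tardigrade Paramacrobiotus metropolitanus were taken as their counterparts. They were taken by identifier, as the study annotated them. PARRI_0002227.t1 and the transcripts of PARRI_0007430 (.t1 and .t2) come from loci that similarity searches with sxl had picked, and they are called candidates because the sequence tree did not settle whether either is a true sxl ortholog. PARRI_0000692.t1 is the tra2 ortholog, PmTra2. The 4 transcripts belong to 3 of the 24899 loci, and all 4 passed the filter on low values. Descriptions of the proteins rest on the study's annotation, since 0 of the 24899 locus identifiers matched the RefSeq gene table of the species, and no sequence is shown.

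In Drosophila, Sex-lethal protein is made in females, where it controls the splicing of its own transcript and of transformer, and it holds back the male form of dosage compensation. Outside flies, relatives of sxl are generally not the switch of sex determination. Tra2 acts with Transformer in Drosophila females as a splicing activator of doublesex and fruitless, and relatives of tra2 in other animals are splicing regulators of many transcripts. At the lower end of such cascades stand the DMRT transcription factors, the family that includes doublesex, and most of what is known of the order of these steps comes from insects.

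The samples were whole bodies of adults of the TYO strain, with no treatment named in the labels, in 3 libraries of females and 4 libraries of males. Animals were reared individually from the egg and sexed by their reproductive organs, and each library was made from poly A-selected RNA of many pooled specimens of one sex. The sexes are therefore compared over pools, and in whole bodies fewer cells of a type and less RNA per cell cannot be told apart. No list of organ or cell type markers was used here, so the make-up of the bodies, gonads included, was not examined.

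Values are TPM, a relative abundance corrected for coding sequence length and scaled between libraries by TMM, so that levels can be compared between genes. Males and females were compared by fitting log2(TPM + 0.1) in limma, over the 18420 transcripts with at least 1 TPM in at least 3 of the 7 libraries, and an FDR below 0.05 was taken as a call. The pseudocount tends to shrink the change of weakly expressed transcripts, but with a listed 0 the fitted change can exceed the ratio of the mean TPM. Taken as males minus females, the median of the log2 differences was 0.50 for all that were tested and 0.03 for the 13274 that averaged 5 TPM or more. The female libraries differed widely from each other. Of the 4410 transcripts called higher in females, 86.2% were lowest in female library 1 and highest in female library 3, with a median log2 ratio of library 3 to library 1 of 1.05. Of the 4662 called higher in males, 22.6% had the opposite order, against 31.6% of the 9348 that were not called. Whether this spread among females had a part in the results below was not tested, and values without single female libraries are given where they change a call.

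All 4 transcripts differed between the sexes at a limma FDR below 0.05, and no library of one sex overlapped with the other. Of these, PARRI_0007430.t1 passed the filter on low values only through the females, where it was high. It also shares its locus with .t2, so their calls are not separate results. PARRI_0002227.t1 was higher in males, and both transcripts of PARRI_0007430 and tra2 were higher in females. Calls were common in these libraries. Of all tested transcripts, 25.3% were called with males higher and 23.9% with females higher, 49.3% together. The sexes did not overlap in 54.0%, with males above females in 28.1% and below in 25.9%. A call alone therefore does not set the 4 transcripts apart.

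**Figure D1:**
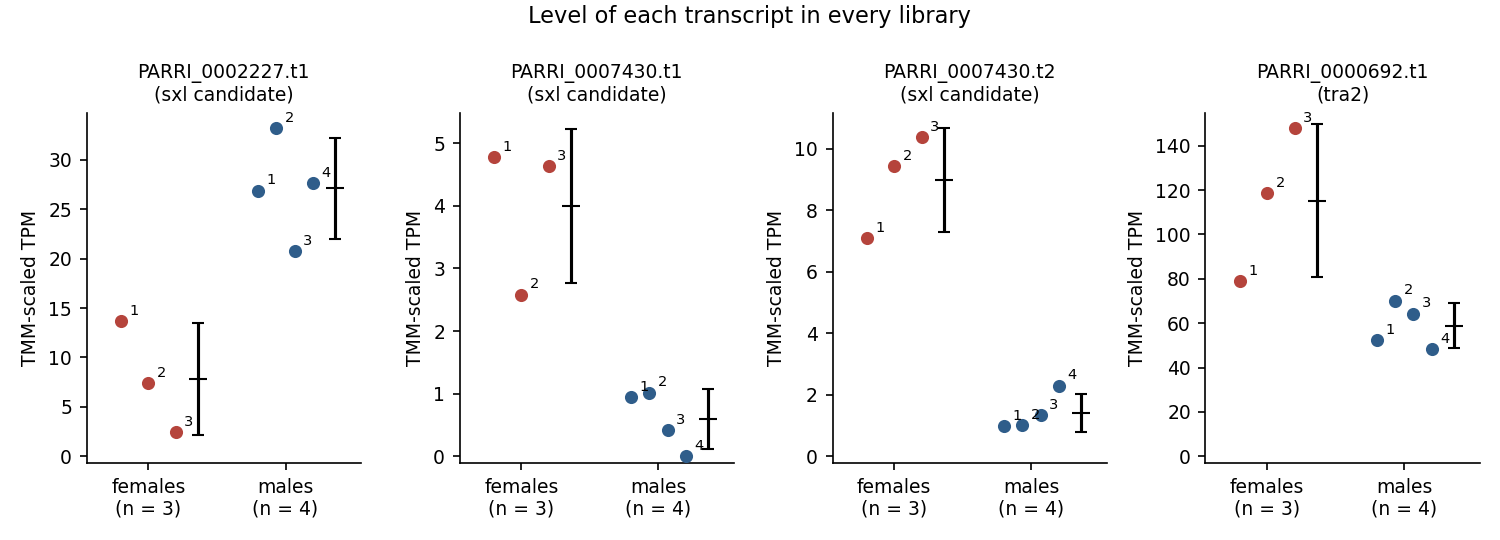
Level of each of the 4 transcripts (TMM-scaled TPM, linear axes) in every library, with the replicate number beside each point and the mean ± SD of each sex in black. PARRI_0002227.t1 lay between 20.8 and 33.2 TPM in males and between 2.42 and 13.7 TPM in females, whereas the other 3 transcripts were higher in every female library than in any male library.

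The candidate PARRI_0002227.t1 had 26.9, 33.2, 20.8 and 27.7 TPM in male libraries 1 to 4 and 13.7, 7.42 and 2.42 TPM in female libraries 1 to 3. The males were high and close together, whereas the females were low and scattered, with the coefficient of variation at 18.8% in males and 72.1% in females. Males averaged 27.1 ± 5.09 TPM (SD, n = 4), 3.46 times the female average of 7.85 ± 5.66 TPM (SD, n = 3). On the log2 scale males exceeded females by 2.07 (standard error 0.54, limma FDR 0.014), which was 1.57 above the median of all tested transcripts. Among the tested transcripts of the same library, PARRI_0002227.t1 stood between the 66.1 and 78.0 percentiles in males and between the 32.3 and 56.1 percentiles in females.

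The size of this difference depended on which female library was used. Female library 1 reached 50.6% of the male mean of PARRI_0002227.t1, female library 2 reached 27.3% and female library 3 reached 8.92%. For comparison, the DMRT ortholog PARRI_0003090.t1 reached 0.510%, 3.42% and 0.481% of its male mean in the same libraries. Of the other DMRT orthologs called higher in males, PARRI_0005877.t1 reached 6.59%, 35.5% and 9.10%, and PARRI_0003093.t1 was listed at 0 in all 3. The female values of these DMRT orthologs were near the floor, at 1.16 TPM or lower. Why the female libraries differed was not tested. Without female library 3 the log2 difference was 1.40 (limma FDR 0.020), and without female library 1 it was 2.63 (limma FDR 0.0029). The call held with each of the 7 libraries left out in turn.

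The other candidate, PARRI_0007430, was near or below the middle of the tested transcripts in females and among the lowest in males. In females .t1 stood between the 27.1 and 40.7 percentiles and .t2 between the 44.2 and 51.2 percentiles of its library, and in males they stood between the 0.896 and 5.47 and between the 4.74 and 13.4 percentiles. Summed over its 2 transcripts, it had 11.9, 12.0 and 15.0 TPM in female libraries 1 to 3 and 1.93, 2.04, 1.77 and 2.30 TPM in male libraries 1 to 4. Both sexes were tight around their means, which were 13.0 ± 1.77 TPM for females (SD, n = 3) and 2.01 ± 0.222 TPM for males (SD, n = 4), a ratio of 6.46. When the transcripts of every locus were summed before the fit, this locus was higher in females by 2.63 on the log2 scale (standard error 0.32, limma FDR 0.00065). Of the 17662 loci in that fit, 51.0% were called, 24.6% with females higher and 26.4% with males higher. Leaving out any 1 library kept the log2 difference (males minus females) between -2.69 and -2.52. The summed level does not depend on how reads common to both transcripts were divided.

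PARRI_0007430.t2 was the more abundant transcript in 7 of the 7 libraries. It had 7.10, 9.45 and 10.4 TPM in female libraries 1 to 3, with a mean of 8.98 ± 1.69 TPM (SD, n = 3). In male libraries 1 to 4 it had 0.981, 1.03, 1.35 and 2.30 TPM, with a mean of 1.41 ± 0.611 TPM (SD, n = 4). Females exceeded males by 2.65 on the log2 scale (standard error 0.44, limma FDR 0.0021), and the call held in every fit that tested it.

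PARRI_0007430.t1 had 4.77, 2.58 and 4.63 TPM in female libraries 1 to 3 and 0.947, 1.02 and 0.423 TPM in male libraries 1 to 3, and it was listed at 0 in male library 4. Of the males only library 2 reached 1 TPM, so .t1 passed the filter on low values through the females, where it was high. The ratio of the female mean (4.00 ± 1.23 TPM, SD, n = 3) to the male mean (0.597 ± 0.478 TPM, SD, n = 4) was 6.70, close to the 6.36 of .t2. On the log2 scale .t1 was higher in females by 2.99 (standard error 0.89, limma FDR 0.025), and this call was weak. It was lost without female library 1 (limma FDR 0.058) and without female library 3 (limma FDR 0.086). With a pseudocount of 1 TPM the difference shrank to 1.67, but so did its standard error, and the call held (0.35, limma FDR 0.0046). The call also held without male library 4, where .t1 was listed at 0 (difference 2.22, limma FDR 0.018).

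Few reads stand behind the male values of this locus. The authors' mean of normalized counts was 43.5 in females and 5.88 in males for .t1, and 97.3 in females and 13.8 in males for .t2. By contrast it was 96.7 in females and 318 in males for PARRI_0002227.t1, and 816 and 377 for tra2. Divided by the mean TPM of females, these counts came to 10.9 per TPM for .t1 and 10.8 per TPM for .t2, so that a TPM of either transcript rested on about as many reads. The counts per library were not used here, and the 0 of .t1 in male library 4 is a listed value rather than proof of absence.

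The .t1 share of PARRI_0007430 was 40.2%, 21.5% and 30.9% in female libraries 1 to 3. In male libraries 1 to 4 it was 49.1%, 49.8%, 23.9% and 0%. The male libraries thus lay on both sides of the females, and the ranges overlapped. The mean share was 30.8% ± 9.36 (SD, n = 3) in females and 30.7% ± 23.7 (SD, n = 4) in males, a difference within the spread (exact permutation test over libraries, two-sided, p = 0.97; the smallest p that 3 against 4 libraries allow is 0.057). Sharing out the summed TPM of each sex, the listed 0 of male library 4 included, gave 30.8% for females and 29.7% for males. The closeness of the mean shares depended on single libraries. The difference (males minus females) was 10.1 percentage points without male library 4 and -6.50 percentage points without male library 2.

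Fitted with limma among 868 transcript-to-rest ratios of loci with several transcripts, the log2 ratio of .t1 to .t2 differed by -0.35 (males minus females; standard error 1.17, limma FDR 0.94), and its 95% interval ran from -3.16 to 2.47. In that fit 3.34% of the ratios were called, 2.30% with males higher and 1.04% with females higher. As a fold, the interval ran from 0.112 to 5.52, and no change in the use of the 2 transcripts was called, while a sizeable one remained possible. The width and the sign rested on the listed 0 of male library 4. Without that library the log2 ratio was 0.67 higher in males (standard error 0.59, limma FDR 0.63), and with a pseudocount of 1 TPM it was 0.40 higher (standard error 0.51, limma FDR 0.76).

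**Figure D2:**
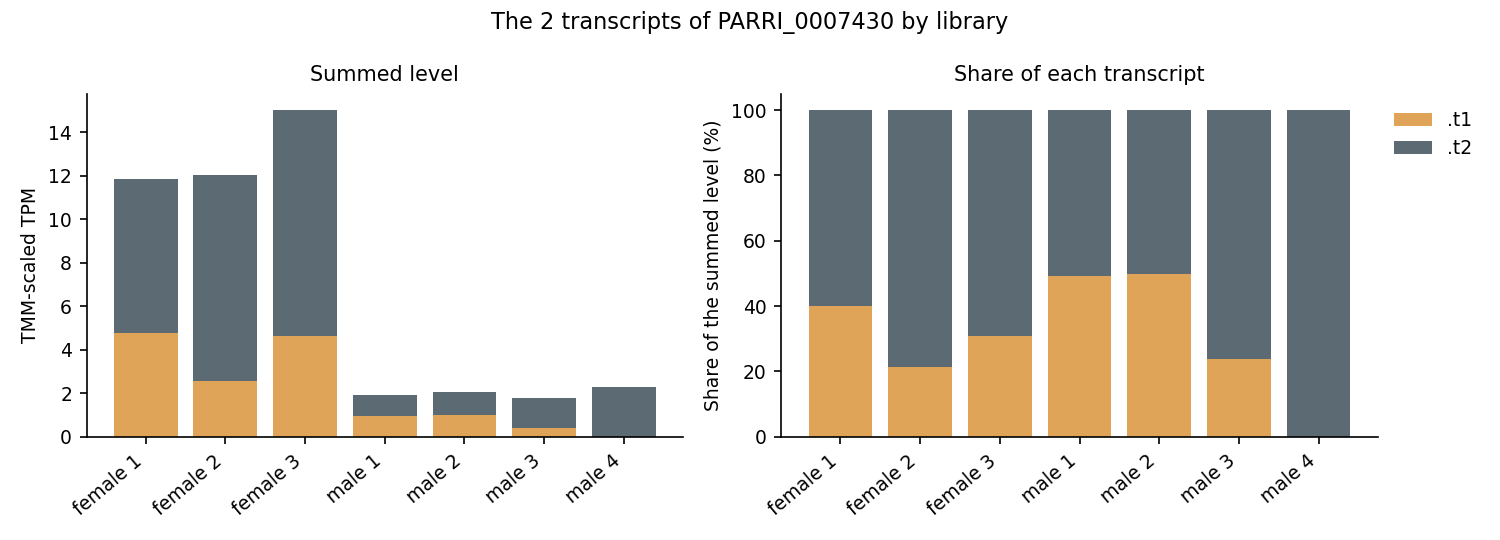
Level of the 2 transcripts of PARRI_0007430 in every library, stacked as TMM-scaled TPM on the left and as percent of their sum on the right. The summed level was between 11.9 and 15.0 TPM in females and between 1.77 and 2.30 TPM in males, while the share of .t1 ran from 21.5% to 40.2% in females and from 0% to 49.8% in males.

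Tra2, PARRI_0000692.t1, was the most abundant of the 4 transcripts in every library. It had 79.0, 119 and 148 TPM in female libraries 1 to 3 and 52.4, 70.2, 64.3 and 48.4 TPM in male libraries 1 to 4. The lowest female library was only a little above the highest male library, and the females were more spread out. Females averaged 115 ± 34.5 TPM (SD, n = 3), 1.96 times the male average of 58.8 ± 10.1 TPM (SD, n = 4). The excess of females was 0.94 on the log2 scale (standard error 0.28, limma FDR 0.026, 95% interval 0.29 to 1.58). In both sexes tra2 belonged to the more abundant tested transcripts of its library, between the 90.2 and 93.0 percentiles in females and between the 84.4 and 89.3 percentiles in males.

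The call for tra2 was the least secure of those for the 3 loci. It was lost in 4 of the 7 fits that left out a library: without female library 2 (limma FDR 0.081), without female library 3 (limma FDR 0.085), without male library 1 (limma FDR 0.065) and without male library 4 (limma FDR 0.057). In these 7 fits the log2 difference (males minus females) ran from -1.19 to -0.73 and kept its sign. Tra2 also followed the spread of the female libraries described above, with a log2 ratio of female library 3 to library 1 of 0.90, near the median of 1.05 of the transcripts called higher in females. The reads were assigned to coding sequences and the matrix lists 1 tra2 transcript, so forms of tra2 that differ outside the coding sequence are not told apart by these values. The study reported such forms, a female-biased and a male-biased variant that differ by an intron in the untranslated region before the coding sequence.

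**Figure D3:**
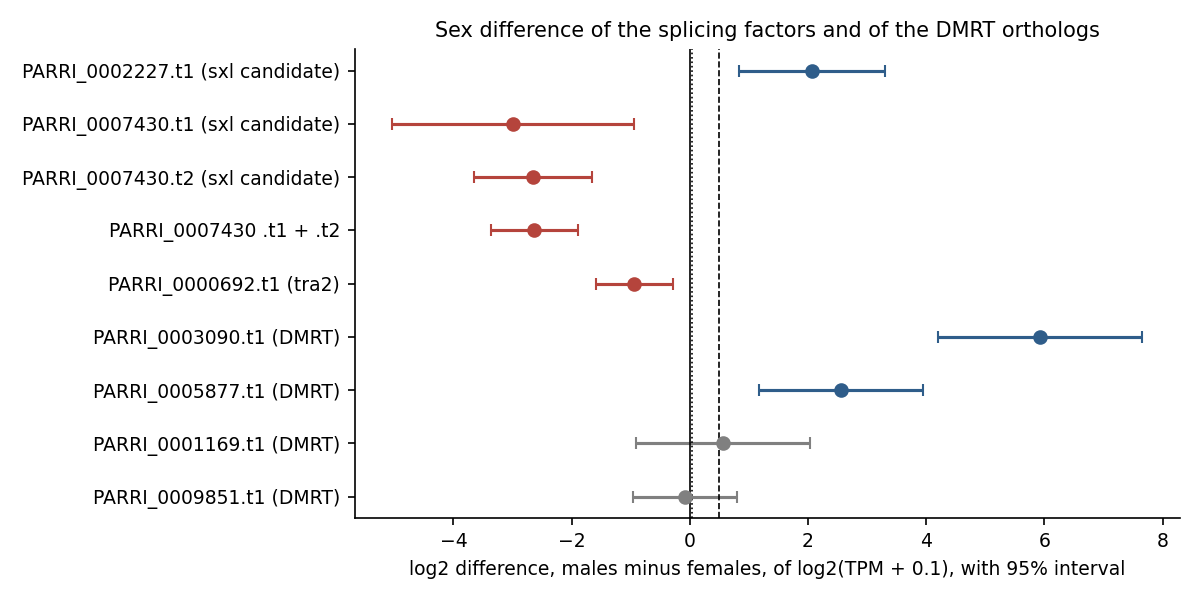
Log2 difference (males minus females) of log2(TPM + 0.1) with the limma 95% interval for the 4 transcripts, the sum of PARRI_0007430 and 4 DMRT orthologs, coloured blue where called higher in males, red where called higher in females and grey where not called. The solid line marks 0, the dashed line the median of all tested transcripts (0.50) and the dotted line the median of those with a mean of at least 5 TPM (0.03). The DMRT ortholog PARRI_0003093.t1 is not drawn, since it is listed at 0 in all 3 female libraries.

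The loci were also ordered by level. In males the order was the same in 4 of 4 libraries, with tra2 highest, PARRI_0002227 next and PARRI_0007430 lowest, and no ranges overlapped. In females tra2 was again highest. PARRI_0007430 was above PARRI_0002227 in female libraries 2 and 3, whereas female library 1 had the order of the males. The female ranges of the candidates overlapped, and no order between them can be given for females.

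Ratios between the loci within a library do not depend on the scaling between libraries, apart from the pseudocount of the log2 values. The ratio of PARRI_0002227 to PARRI_0007430 (.t1 and .t2 summed) was 1.16, 0.616 and 0.161 in female libraries 1 to 3. In male libraries 1 to 4 it was 13.9, 16.3, 11.7 and 12.1. Males were thus alike, with PARRI_0002227 over 10 times as abundant in all 4, and every female library was far below. On the log2 scale the ratio was 4.70 higher in males, with 3.68 ± 0.22 (SD, n = 4) in males against -1.02 ± 1.42 (SD, n = 3) in females. Since the loci differed in opposite directions without overlap, their ratio had to separate the sexes, and it is given with no test. Leaving out any 1 library kept this value between 3.92 and 5.32.

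Tra2 was 6.66, 9.87 and 9.84 times as abundant as PARRI_0007430 in female libraries 1 to 3 and 27.2, 34.4, 36.4 and 21.1 times as abundant in male libraries 1 to 4. Both loci were higher in females, but the excess was larger for PARRI_0007430. The log2 ratio differed by 1.69 between the sexes (exact permutation test over libraries, two-sided, p = 0.057, the smallest that 3 against 4 libraries allow). This ratio was chosen after the values were seen, so its p-value is given only as a description. Over PARRI_0002227, tra2 was 5.76, 16.0 and 61.1 times as abundant in female libraries 1 to 3 and 1.95, 2.12, 3.10 and 1.75 times in male libraries 1 to 4. Tra2 was lower and PARRI_0002227 higher in males without overlap, so this ratio too had to separate the sexes.

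**Figure D4:**
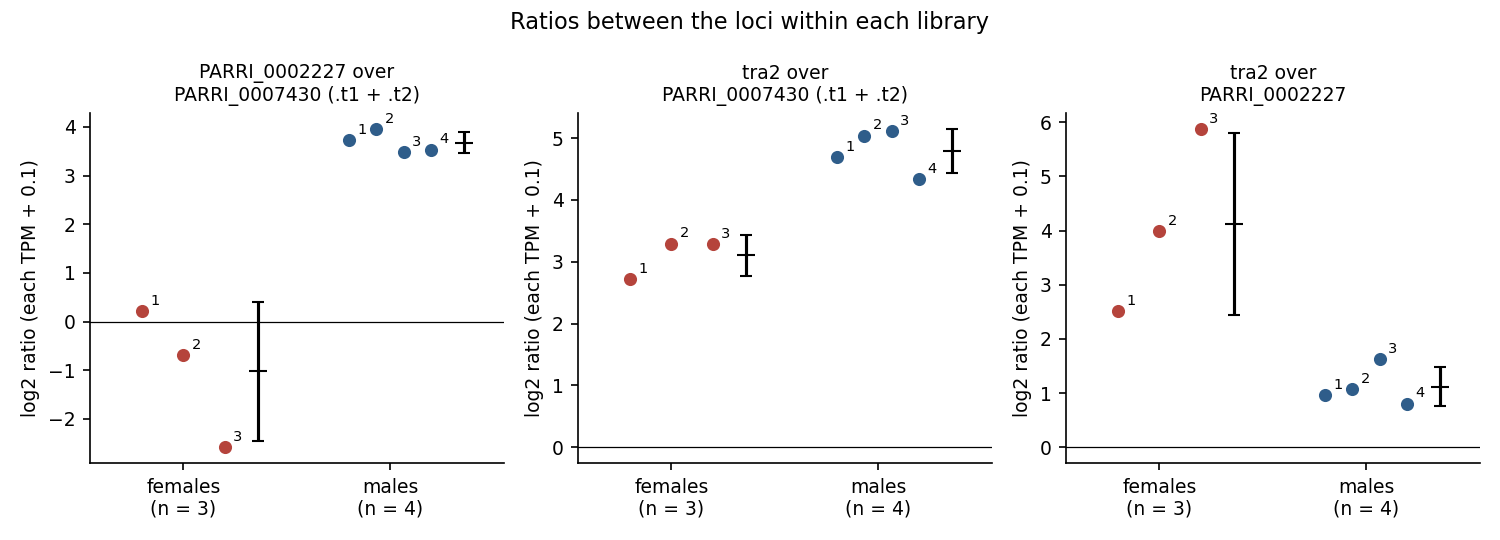
Log2 ratios between the loci within each library (each TPM + 0.1), with the replicate number beside each point and the mean ± SD of each sex in black. The sexes did not overlap in any of the 3 ratios, and the ratio of PARRI_0002227 to PARRI_0007430 lay between 3.48 and 3.96 in males and between -2.58 and 0.21 in females.

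The other sex-cascade genes annotated in this species are the 5 DMRT orthologs, all of which were tested. Of these, 3 were called, all higher in males, beside 25.3% of all tested transcripts called with males higher and 49.3% called in all. The other 2 were not called in either direction. PARRI_0003090.t1, PARRI_0003093.t1 and PARRI_0005877.t1 thus had the direction of PARRI_0002227.t1. These 3 passed the filter on low values only through the males, where they were high. PARRI_0003093.t1 was listed at 0 and PARRI_0005877.t1 was below 1 TPM in every female library. PARRI_0003090.t1 reached 1 TPM among females only in library 2. The call for PARRI_0005877.t1 was lost after quantile normalization (log2 difference 0.76, limma FDR 0.22). PARRI_0001169.t1 averaged 6.95 ± 2.82 TPM in males (SD, n = 4) against 5.48 ± 4.12 TPM in females (SD, n = 3), and the sign of its difference changed without female library 1 and under quantile normalization. PARRI_0009851.t1 averaged 2.46 ± 0.349 TPM in males (SD, n = 4) against 2.61 ± 0.378 TPM in females (SD, n = 3), and it was called lower in males only under quantile normalization (log2 difference -1.26, limma FDR 0.036).

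The loci numbered beside the 3 loci were then described. Numbers of the identifiers were used as given, and positions in the genome were not examined. Within 5 numbers on either side, 28 of 30 transcripts were tested, of which 17 had a call with females higher and 4 with males higher. Around tra2, 6 of 10 had a call with females higher and 0 with males higher. The 10 around PARRI_0007430 held 7 calls with females higher and 3 with males higher. The 8 tested around PARRI_0002227 held 4 calls with females higher and 1 with males higher. All of these shares can be read against the 23.9% and 25.3% of the whole table. Leaving out any 1 library gave totals of 13 to 19 with females higher and of 4 to 6 with males higher.

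PARRI_0002227.t1 had a called neighbour of the opposite direction on one side. PARRI_0002226.t1 had 26.5, 42.7 and 62.6 TPM in female libraries 1 to 3 and 13.1, 12.9, 13.2 and 9.58 TPM in male libraries 1 to 4, with females higher by 1.76 on the log2 scale (limma FDR 0.0037). On the other side stand PARRI_0002228.t1 and PARRI_0002229.t1, of the CAHS family of heat-soluble proteins that tardigrades use in drying. PARRI_0002228.t1 had 13.4, 5.57 and 3.77 TPM in female libraries 1 to 3, in the same order as PARRI_0002227.t1, and 13.6, 10.6, 11.4 and 10.2 TPM in male libraries 1 to 4. Its ranges overlapped and it was not called (limma FDR 0.16), but it passed without female library 1 (limma FDR 0.0097). PARRI_0002229.t1 had 72.6 ± 32.6 TPM among males (SD, n = 4) and 4.47 ± 4.00 TPM among females (SD, n = 3), with males higher by 4.33 on the log2 scale (limma FDR 0.0016).

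The neighbours of PARRI_0007430 were called in the same direction on both sides. PARRI_0007431.t1 was more abundant than the summed PARRI_0007430 in every library. PARRI_0007429.t1 was below that sum in female library 1 (8.60 against 11.9 TPM) and above it in the others. PARRI_0007429.t1 averaged 14.9 ± 6.21 TPM in females (SD, n = 3) against 4.33 ± 1.42 TPM in males (SD, n = 4) (limma FDR 0.012), and PARRI_0007431.t1 averaged 129 ± 42.8 TPM in females (SD, n = 3) against 28.1 ± 6.62 TPM in males (SD, n = 4) (limma FDR 0.0012). Beside tra2, PARRI_0000691.t1 was close to it in level and direction. It averaged 118 ± 29.0 TPM in females (SD, n = 3) against 64.8 ± 11.0 TPM in males (SD, n = 4) (limma FDR 0.029), a call that was lost in 5 of the 7 fits without a library. PARRI_0000693.t1 averaged 243 ± 72.5 TPM in females (SD, n = 3) against 196 ± 39.7 TPM in males (SD, n = 4), and its ranges overlapped (limma FDR 0.42).

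**Figure D5:**
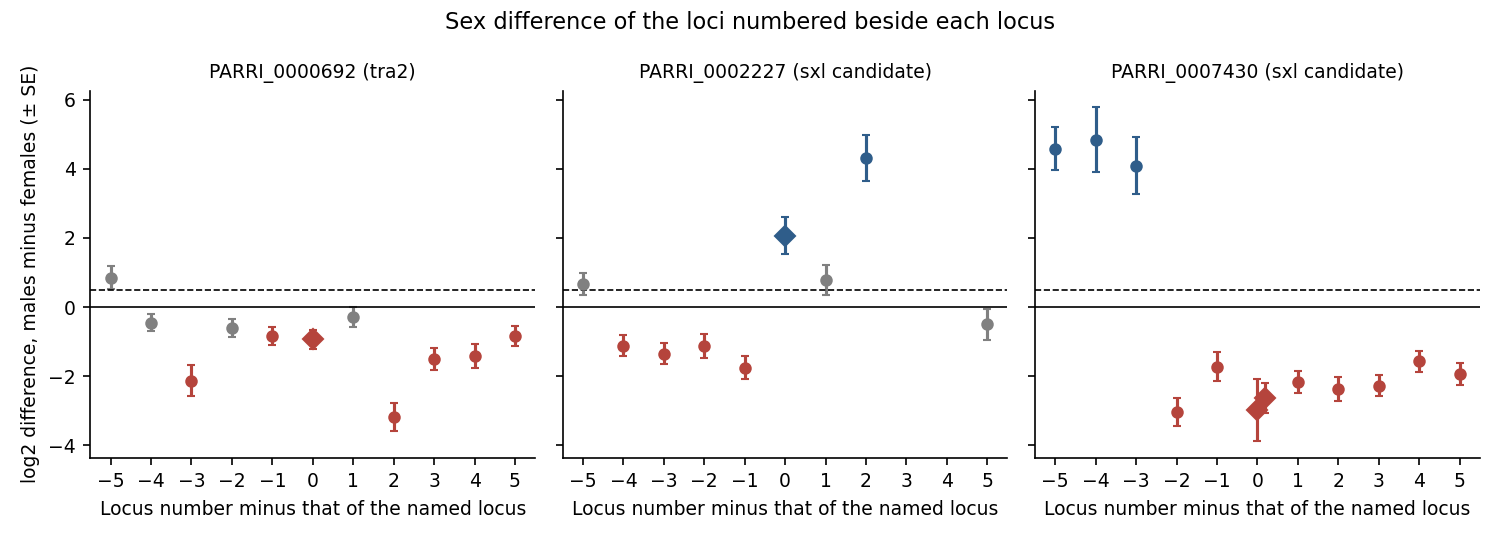
Log2 difference (males minus females, ± limma standard error) of the tested transcripts whose locus number is within 5 of that of tra2 (left), PARRI_0002227 (middle) and PARRI_0007430 (right). Diamonds are the named loci themselves, colours mark calls (blue higher in males, red higher in females, grey not called) and the dashed line is the median of all tested transcripts, 0.50. PARRI_0002227.t1 lies beside 4 transcripts called higher in females at the lower numbers, and 7 of the 10 transcripts around PARRI_0007430 were called higher in females.

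Last, transcripts with a like pattern were sought among those with a mean of at least 5 TPM. Likeness was measured as the root mean square difference, over the 7 libraries, between log2(TPM + 0.1) values centred on each transcript's own mean. The closest to PARRI_0002227.t1 was PARRI_0022878.t1 (0.15), with 30.1, 18.2 and 7.12 TPM in female libraries 1 to 3 and 81.6, 82.5, 54.4 and 76.4 TPM in male libraries 1 to 4. It shared the scatter of the females, from highest in library 1 to lowest in library 3, and the low value of male library 3. PARRI_0013101.t1 was closest to tra2 (0.071), averaging 204 ± 59.2 TPM in females (SD, n = 3) against 110 ± 15.9 TPM in males (SD, n = 4). PARRI_0002602.t2 was closest to PARRI_0007430.t2 (0.19), averaging 47.5 ± 17.2 TPM in females (SD, n = 3) against 7.62 ± 2.31 TPM in males (SD, n = 4). The closest to PARRI_0007430.t1, PARRI_0019914.t1, was less alike (0.53), and like .t1 it was lowest in male library 4. All of these were picked for likeness over the same 7 libraries, so the features they share follow from the choice. No gene name is paired with these identifiers in the files.

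The search was repeated among the 62 tested transcripts annotated as CAHS, SAHS, AMNP or DMRT, a far smaller pool than the 13239 or 13240 searched before, so the distances of the searches cannot be set against each other. The closest were the AMNP peroxidase PARRI_0013909.t1 for PARRI_0002227.t1 (0.56), the SAHS transcript PARRI_0012415.t1 for PARRI_0007430.t2 (0.59), the CAHS transcript PARRI_0004919.t1 for PARRI_0007430.t1 (1.43) and the AMNP peroxidase PARRI_0009344.t1 for tra2 (0.40). Closest here did not mean the same sex difference. PARRI_0004919.t1 (limma FDR 0.10) and PARRI_0009344.t1 (limma FDR 0.27) overlapped between the sexes and were not called. PARRI_0013909.t1 was called higher in males (limma FDR 0.038) and PARRI_0012415.t1 higher in females (limma FDR 0.011).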

How the data were processed

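Whole-body RNA of 3 female and 4 male pools was measured, with sex and replicate number taken from the sample labels. The authors assigned reads to coding sequences with RSEM 1.3.3 and deposited a signal per transcript and library, TPM rescaled by TMM, which sums to between 891117 and 1127677 per library and keeps no read depth. The authors' second table holds their DESeq2 1.38.0 comparison, whose fold changes and p-values were not used. Its mean normalized counts (a signal, one mean per sex) served only to describe read support. The authors' test ran on counts, which were not used here.

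For the comparison of the sexes, log2(TPM + 0.1) was fitted by limma 3.58.1 (R 4.3.3). The model held no term but sex, the prior variance followed a trend, and the two-sided p-values were adjusted over all rows (Benjamini-Hochberg). Locus sums (17662 tested) and transcript-to-rest ratios (868, each part with a mean of at least 1 TPM) were fitted likewise. The fits were tested on simulated data. Exact permutation tests used SciPy 1.17.1, with Python 3.11.15, pandas 2.3.3, NumPy 2.4.6 and matplotlib 3.10.9. Nothing in the labels says which tubes came from separate cultures, so p-values measure only the spread between these pools.

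Named transcripts were the 4 members, the 5 DMRT orthologs, the loci numbered directly beside a member, and for each member the closest transcript with a mean of at least 5 TPM and the closest annotated one. PARRI_0002229.t1 was named after its value was seen. The members, lists and rules were chosen with earlier results of these data known. The ratios with tra2 were added after seeing the values. The alternatives were other pseudocounts, filters, scalings and priors, a block for replicate number, and fits that left out single libraries.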

Additional observations from a re-analysis of the deposited data

Results flagged for a closer look

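Single male libraries far from the other 3 were sought in 27 sets of male values, and 3 were found. Chance alone picks out about 5% of sets chosen without regard to their values, which does not apply to PARRI_0019914.t1 and PARRI_0012415.t1, since these were chosen for their likeness over the 7 libraries to PARRI_0007430.t1 and .t2. PARRI_0002226.t1, numbered beside PARRI_0002227, was low in male library 4 (9.58 TPM against 12.9 to 13.2 TPM in the others), with the gap at 0.918 of the whole range. PARRI_0019914.t1, the closest in pattern to PARRI_0007430.t1, was low in the same library (2.00 TPM against 11.3 to 12.1 TPM), with the gap at 0.922 of the range. The SAHS transcript PARRI_0012415.t1 was high there (243 TPM against 47.3 to 61.7 TPM), with the gap at 0.926 of the range. None of the 4 splicing factor transcripts, the sum of PARRI_0007430, its .t1 share or the ratios examined was picked out in this way.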

How the results depend on the processing

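PARRI_0002227.t1, PARRI_0007430.t2 and the sum of PARRI_0007430 kept their direction and call in every fit that tested them. With replicate number as a block, which leaves male library 4 without weight, PARRI_0007430.t1 (log2 difference, males minus females, -2.22, limma FDR 0.052) and tra2 (-0.85, limma FDR 0.052) fell short of the threshold and the log2 ratio of .t1 to .t2 turned to 0.67. Deviations of same-numbered libraries correlated at -0.013, 0.028 and 0.253, over transcripts, and those of differently numbered libraries at -0.255 to 0.259. These values do not settle whether the numbers pair the samples. With each library left out, log2 differences ran from -3.38 to -2.22 for PARRI_0007430.t1 and from -1.19 to -0.73 for tra2, the log2 ratio of .t1 to .t2 from -0.85 to 0.67, the difference in .t1 share from -6.50 to 10.1 percentage points, that of PARRI_0001169.t1 from -0.12 to 1.15 and the calls higher in males from 3065 (without male library 1) to 5552. The cause of these changes was not tested. The log2 ratio of .t1 to .t2 was also positive with a pseudocount of 1 (0.40) or 0.5 (0.22), and PARRI_0001169.t1 was negative under quantile normalization (-0.083). When transcripts needed a mean of at least 5 TPM, PARRI_0007430.t1 and .t2 and some others were not tested, and 3005 transcripts, 1 DMRT ortholog and 2 neighbours were called higher in males. The difference in the log2 ratio of tra2 to PARRI_0007430 was 1.28 with a pseudocount of 1. For PARRI_0007430 in males, few reads stand behind each value, and with 3 against 4 pools no exact test could pass 0.05.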
